A study of Mus musculus with 6 samples.

Results

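The p53 pathway was followed through 33 named genes, chosen by symbol from the 55401 genes of an RNA-seq table: Trp53, which encodes p53 itself, 7 genes that act on p53 or on its stability, and 25 known p53 target genes. The p21 gene and most BCL2 family genes were left out of the choice. The samples were NIH-3T3 cells, an immortalised line of mouse embryonic fibroblasts, with the genotype given as WT (3 libraries), and a derivative of the line with the genotype given as Mutation (MU, 3 libraries). Both were kept in serum-containing medium with no agent named, and poly(A) RNA was sequenced. Which gene was mutated, and how, is not in the labels, nor is whether MU is 1 clone. The study's title links errors of mitochondrial translation to oxidative stress and arrest of the cell cycle, so the comparison asks how transcripts of a stress pathway that can arrest the cell cycle stood in the mutated cells. With 1 unmutated line and 1 derivative, an effect of the mutation and any other difference between the lines cannot be told apart, and p-values rest only on how far these libraries scatter, which may be technical.

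p53 is a transcription factor that is held at low protein level by the ubiquitin ligase Mdm2 and its partner Mdm4, and that is stabilised when DNA damage, oxidative stress or oncogene signals interrupt this control. It then raises the transcription of genes that stop the cell cycle, repair DNA, adjust metabolism or prepare cell death, and of Mdm2 itself, which closes a feedback loop. Because this control acts mostly on the protein, the Trp53 transcript is a poor guide to p53 activity. NIH-3T3 cells are known to have lost Cdkn2a, whose Arf product blocks Mdm2, while keeping p53. Cdkn2a was listed at 0 TPM in all 6 libraries.

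Levels are in TPM (reads per transcript length, scaled to the same total in each library), and differences were tested with limma on log2(TPM + 1) over 14209 genes, with calls at a Benjamini-Hochberg adjusted p under 0.05. Of the 33 genes, 31 passed the filter on low values, and all 31 reached 1 TPM in all 6 libraries. Of the others, Perp, which encodes a membrane protein of p53-dependent death, was listed at 0 in all 6 libraries. Pmaip1, which encodes the BH3-only protein Noxa, lay between 0.0346 and 0.223 TPM. The 7 fibroblast markers all exceeded 1 TPM in every library, while 22 of 23 markers of leukocytes, endothelium, epithelium, adipocytes and muscle were below 1 TPM in every library. The exception was Cdh5, a cadherin of endothelium, at 1.32 to 2.82 TPM in WT and 0.0919 to 0.114 TPM in MU. Across genes, deviations from the mean level correlated with GC content at 0.33 in WT replicate 2 and at −0.25 in WT replicate 3 (Spearman). The value was −0.084 in WT replicate 1, and −0.12, −0.091 and 0.17 in MU replicates 1, 2 and 3.

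In the mutated cells 7 of the 31 tested genes rose and 1 fell, while 23 did not pass. The 7 were Trp53inp1, Plk2, Ccng1, Ercc5, Ddb2, Polk and Tnfrsf10b, and the 1 was Fdxr. Of all tested genes 7.12% rose and 11.6% fell, or 18.8% in all (limma), so the share of the 31 genes that rose, 22.6%, was above the background and the share that fell, 3.23%, below it. The 3 MU values stood clear of the 3 WT values in 13 of the 31 genes on the higher and 4 of the 31 on the lower side. Of all 14209 tested genes, 2294 (16.1%) and 3275 (23.0%) did so. The median log2 fold change was 0.15 over the 31 genes and −0.05 over all tested genes, and 20 of the 31 were positive. Trp53inp1, Plk2 and Ercc5 kept their call under all 17 alternative settings tried, whereas the other 5 lost it under 4 to 8 of them. The number that rose was 4 without WT replicate 1, where 4.43% of all tested genes rose, and 3 without any 1 MU library, where 3.01% to 3.27% did. The number that fell was 0 without any of those 4 libraries, 2 without WT replicate 2 (Aen and Fdxr) and 3 without WT replicate 3 (Aen, Fdxr and Tigar). The shares of all tested genes that fell were 4.53% to 5.64% without any of those 4 libraries, 15.8% without WT replicate 2 and 11.2% without WT replicate 3. Among all calls in the table, rises made up 37.9% as deposited and 48.3% to 48.8% under 3 other scalings, and the 7 rises and the fall of Fdxr were called under each of these. In the authors' deposited table, 9 of the 31 genes had an adjusted p under 0.05 as higher and 3 as lower, against 9.42% and 11.6%, or 21.1% in all, of its genes with an adjusted p. These 12 included all 8 limma calls in the same direction, and the other 4 were Sesn1 and Apaf1 (higher) and Aen and Tigar (lower).

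**Figure D1:**
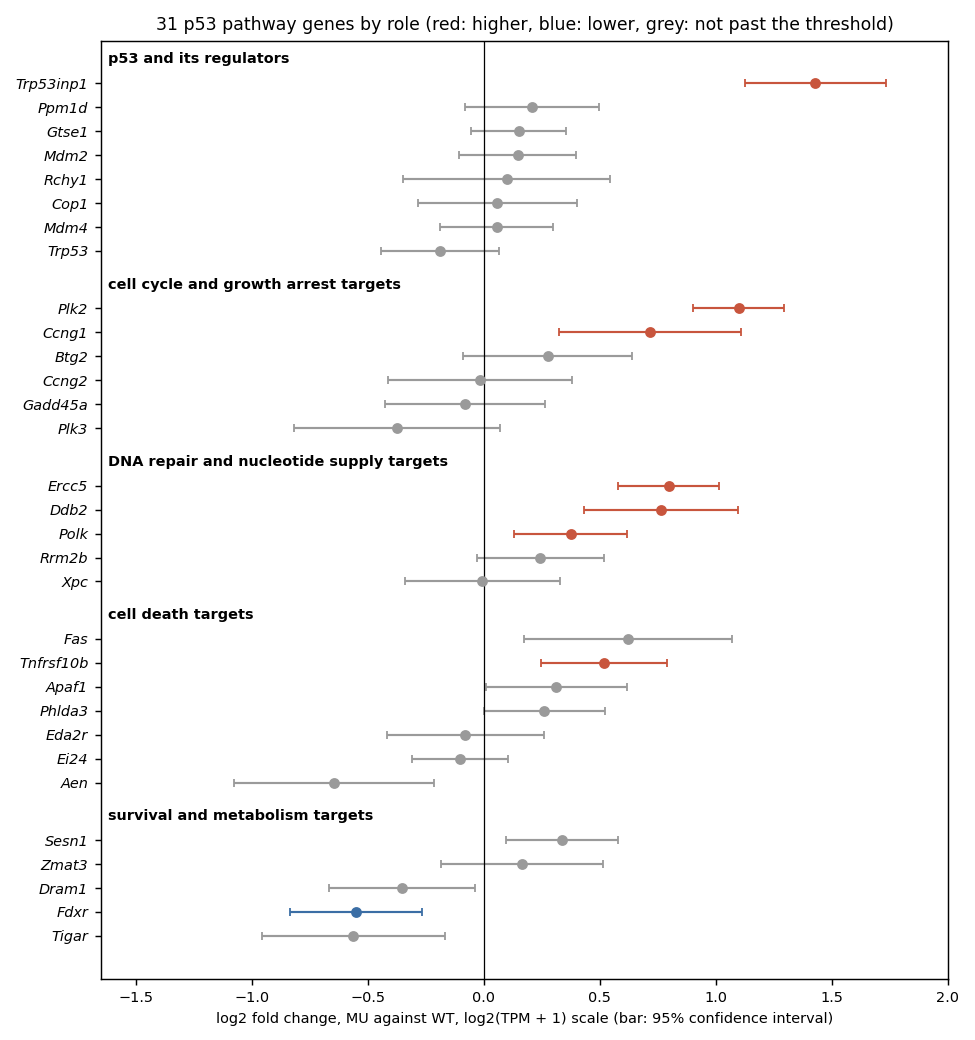
Log2 fold changes of MU against WT on the log2(TPM + 1) scale for the 31 tested genes, sorted by role. Points are limma estimates and bars their 95% confidence intervals, with red for genes past the threshold as higher, blue for lower and grey for the rest. Trp53inp1 at 1.43 and Plk2 at 1.10 lie farthest to the right, and Aen at −0.64 lies farthest to the left.

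**Figure D2:**
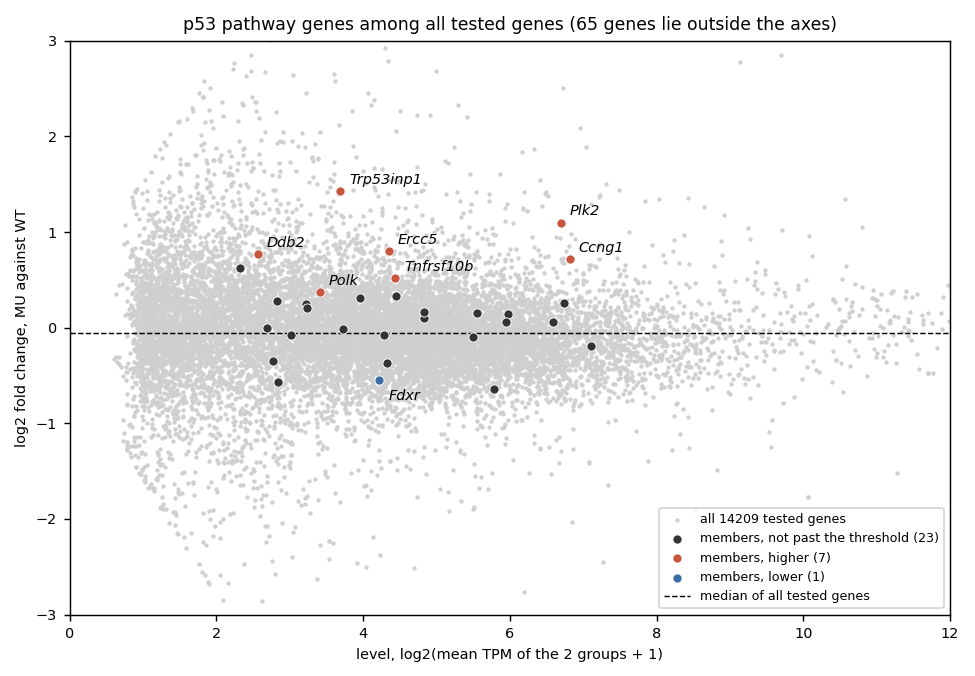
Log2 fold change of MU against WT (vertical axis) by mean level (horizontal axis, log2 scale) for all 14209 tested genes in light grey, with the 31 genes in red (higher), blue (lower) or black. The dashed line is the median of all tested genes at −0.05, and 65 genes lie outside the axes. The 7 risen genes are spread over low and high levels, from Ddb2 at a mean of 3.38 TPM in WT to Ccng1 at 85.0 TPM.

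Transcripts of p53 and of its inhibitors Mdm2 and Mdm4 did not pass the test. Averaged over both groups, Trp53 (ENSMUSG00000059552.13, chromosome 11, 69580359 to 69591873, GRCm38) was the most abundant of the 33 transcripts, although in MU Plk2 and Ccng1 averaged more, at 140 and 138 TPM. Trp53 was at 138, 166 and 135 TPM in the WT libraries and 125, 122 and 136 TPM in the MU libraries. Its groups overlapped, since MU replicate 3 lay above WT replicate 3. The log2 fold change was −0.19 (SE 0.11, 95% confidence interval −0.44 to 0.07, limma adjusted p = 0.269), −0.096 without WT replicate 2 and −0.061 under quantile normalization. Trp53-ps, a pseudogene of Trp53, was listed at 0 in all libraries.

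Mdm2 (chromosome 10, 117688875 to 117710758), the ubiquitin ligase that marks p53 for degradation and is itself a p53 target, was at 53.1, 55.8 and 67.2 TPM in WT and 64.5, 65.8 and 64.1 TPM in MU. WT replicate 3 was the highest of all 6 libraries, so the groups overlapped. Its log2 fold change was 0.15 (SE 0.11, 95% confidence interval −0.11 to 0.40, limma adjusted p = 0.385). It was 0.079 without WT replicate 1, 0.25 without WT replicate 3 (adjusted p = 0.0805), 0.26 under quantile normalization and 0.025 after position centring. Mdm4 (chromosome 1, 132959484 to 133030561), which binds p53 and blocks its activation domain, was at 65.2, 53.9 and 59.3 TPM in WT and 61.1, 66.3 and 57.8 TPM in MU, again with overlapping groups. The difference was 0.06 in log2 units (SE 0.10, limma adjusted p = 0.747), and it became −0.01 without WT replicate 2, 0.12 without WT replicate 1 and 0.17 under quantile normalization.

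Other enzymes that restrain p53 did not pass either. Cop1 and Rchy1, which encode further ubiquitin ligases for p53, averaged 93.2 ± 15.1 and 26.5 ± 5.99 TPM in WT and 96.5 ± 9.98 and 28.2 ± 4.30 TPM in MU (mean ± SD, n = 3). Without WT replicate 2 their log2 fold changes turned from 0.06 and 0.10 to −0.08 and −0.04. Ppm1d, the phosphatase Wip1, which removes damage-induced phosphates from p53 and its kinases, averaged 7.76 ± 0.790 TPM in WT and 9.10 ± 0.585 TPM in MU.

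Gtse1, a microtubule-binding protein that exports p53 from the nucleus and is made mainly in late cell cycle phases, averaged 43.3 ± 2.67 TPM in WT and 48.2 ± 2.17 TPM in the MU libraries, with no overlap between groups (limma adjusted p = 0.276). Its log2 fold change of 0.15 stood beside a median of −0.15 over 15 G2/M genes, of which 2 were positive (13.3%, against 44.4% of all tested genes). Among these 15, Cenpf, a kinetochore protein, rose from 18.9 ± 2.57 to 25.8 ± 0.756 TPM and Birc5, the survival and mitosis protein survivin, fell from 214 ± 19.9 to 168 ± 3.44 TPM, and 13 did not pass, which makes 6.67% in each direction against 7.12% higher and 11.6% lower of all tested genes. Both calls were lost under many alternatives, 9 of 17 for Cenpf and 12 of 17 for Birc5.

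Trp53inp1 (ENSMUSG00000028211.11, chromosome 4, 11156431 to 11174379) differed most of all 31 genes. It encodes a small stress protein that is induced by p53, acts back on it by favouring a phosphorylation linked to cell death, and also takes part in autophagy. Its level was 5.88, 5.46 and 6.51 TPM in WT and 17.8, 19.9 and 15.6 TPM in MU, so that all MU libraries were far above all WT libraries. Its log2 fold change was 1.43 (SE 0.13, limma adjusted p = 0.00132), and it ranged from 1.05 to 1.56 over the 17 alternatives, with adjusted p of 0.000537 to 0.018.

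**Figure D3:**
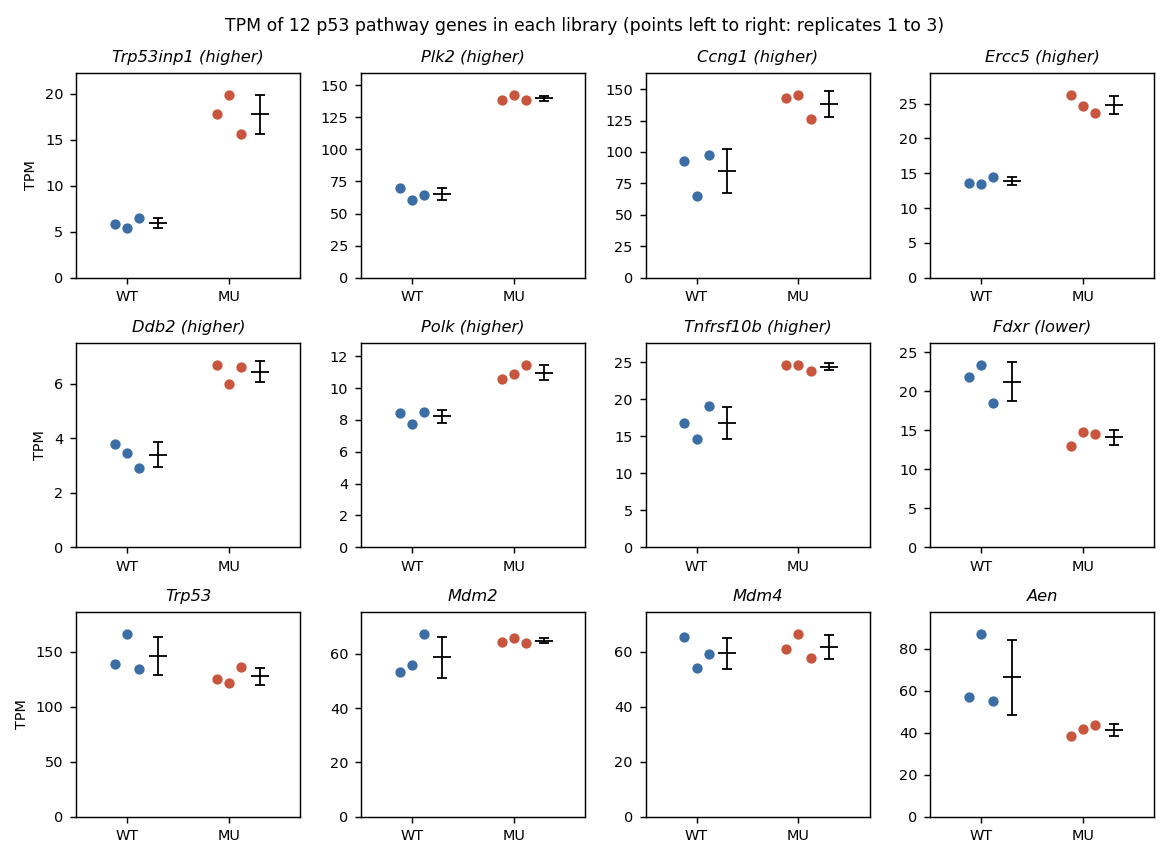
TPM in each library for the 8 genes past the threshold and for Trp53, Mdm2, Mdm4 and Aen. Points are libraries of WT (blue) and MU (red), in the order of replicates 1 to 3, and the black marks beside them are the mean and SD of the 3 libraries, on axes that start at 0. The groups are apart in all panels but those of Trp53, Mdm2 and Mdm4, and WT replicate 2 stands away from the other WT libraries in Ccng1 and Aen.

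p53 binds DNA at pairs of a decamer half-site, and promoter windows of the genes were searched for it. RefSeq (GRCm38.p6) gave a window of 250 bases before to 50 after a start site for 25 of the 33 genes, and where it gave several, the one nearest the annotated gene start was used. An exact match to the p53 decamer half-site, which reads as the same pattern on both strands, was found in 7 of these 25 (28.0%), against 7.65% of 20510 genes. The 7 were Trp53, Mdm2, Ppm1d, Ccng1, Gadd45a, Aen and Ei24, and of them Ccng1 was the only one to pass in the expression test. Of all 25, 4 rose, 1 fell and 20 did not pass, while 18.8% of all tested genes were called. The 8 genes without a window, among them the risen Trp53inp1, Ddb2 and Tnfrsf10b, were not searched. A pair of half-sites with at most 1 mismatch and a spacer of up to 13 bases was found in 1 of the 25 (4.00%), Ccng1, against 0.936% of genes. Over all windows of a gene, which include starts farther from the annotated one, 11 of the 25 genes held a half-site (44.0%, against 9.55% of 27025 genes) and 3 of the 25 a pair (against 1.24% of genes). Polk was among these 3, with a half-site and a pair at −231 in a window of another start. Most of the genes were chosen as known p53 targets, so shares above those of all genes could follow from the choice alone and test nothing here. A match is a description of the letters and not of binding, and sites farther from the start, such as those in the introns where p53 is known to bind at Mdm2, lie outside these windows.

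The 250 bases before the start are shown for genes that rose (Ccng1, Plk2, Ercc5 and Polk), for the gene that fell (Fdxr) and for Mdm2, so that risen genes with and without a match in the shown window can be set beside a feedback gene that did not pass. Capitals mark the pair of half-sites in Ccng1 (chr11:40755287-40755536, minus strand) and the half-site in Mdm2 (chr10:117710759-117711008, minus strand). The other windows shown hold no match, whatever other starts of these genes hold, and are all in lower case: Plk2 (chr13:110394794-110395043, plus strand), Ercc5 (chr1:44147494-44147743, plus strand), Polk (chr13:96542580-96542829, minus strand) and Fdxr (chr11:115276970-115277219, minus strand). The pair in Ccng1 begins at −195 and the half-site in Mdm2 at −186 from the start.
Ccng1: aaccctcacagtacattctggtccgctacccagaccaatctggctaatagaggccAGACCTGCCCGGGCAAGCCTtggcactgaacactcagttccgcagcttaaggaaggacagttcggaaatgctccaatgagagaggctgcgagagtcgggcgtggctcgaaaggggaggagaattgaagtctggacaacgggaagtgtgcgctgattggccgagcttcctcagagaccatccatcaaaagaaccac
Mdm2: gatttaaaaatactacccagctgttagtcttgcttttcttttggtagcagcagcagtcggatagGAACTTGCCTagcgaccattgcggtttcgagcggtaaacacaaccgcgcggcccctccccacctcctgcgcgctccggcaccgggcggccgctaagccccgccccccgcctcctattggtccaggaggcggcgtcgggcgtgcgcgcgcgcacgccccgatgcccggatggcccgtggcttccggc
Plk2: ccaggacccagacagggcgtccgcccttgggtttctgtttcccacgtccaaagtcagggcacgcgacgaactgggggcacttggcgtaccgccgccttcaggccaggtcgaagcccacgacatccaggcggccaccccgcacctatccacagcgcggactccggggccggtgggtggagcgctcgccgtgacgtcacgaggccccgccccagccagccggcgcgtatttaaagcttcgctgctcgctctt
Ercc5: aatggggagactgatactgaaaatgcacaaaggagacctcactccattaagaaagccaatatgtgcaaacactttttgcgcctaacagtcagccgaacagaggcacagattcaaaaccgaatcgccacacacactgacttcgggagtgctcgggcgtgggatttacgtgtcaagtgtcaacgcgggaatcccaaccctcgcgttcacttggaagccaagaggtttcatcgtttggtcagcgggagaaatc
Polk: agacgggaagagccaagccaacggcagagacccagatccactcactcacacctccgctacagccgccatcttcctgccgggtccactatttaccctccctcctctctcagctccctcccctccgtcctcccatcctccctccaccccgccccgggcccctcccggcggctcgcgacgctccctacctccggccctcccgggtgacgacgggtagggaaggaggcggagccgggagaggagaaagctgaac
Fdxr: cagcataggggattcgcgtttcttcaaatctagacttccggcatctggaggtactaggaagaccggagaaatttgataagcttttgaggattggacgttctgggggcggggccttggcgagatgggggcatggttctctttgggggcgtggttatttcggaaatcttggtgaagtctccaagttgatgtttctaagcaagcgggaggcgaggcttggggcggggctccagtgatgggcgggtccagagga

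Among 6 target genes of cell cycle and growth arrest, 2 rose (33.3%, against 7.12% of all tested genes) and 4 did not pass. Plk2 (ENSMUSG00000021701.8, chromosome 13, 110395046 to 110400844) encodes a polo-like kinase of G1 and of centriole duplication that p53 induces after stress. Its level was 69.8, 60.4 and 64.8 TPM in WT and 139, 142 and 139 TPM in MU, so that the MU libraries lay close together and well above all WT libraries. The estimate was 1.10 on the log2 scale (SE 0.08, limma adjusted p = 0.000705), and it stayed between 1.05 and 1.21 over the 17 alternatives.

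Ccng1 (ENSMUSG00000020326.7, chromosome 11, 40748552 to 40755311), the gene with the paired half-sites shown above, encodes cyclin G1, which recruits a phosphatase to Mdm2 and is among the most regular p53 targets in mouse cells. It was at 92.8, 64.8 and 97.4 TPM in WT and 143, 145 and 127 TPM in MU. WT replicate 2 was well below the other WT libraries, yet the groups did not overlap. Cyclin G1 transcripts differed by 0.72 in log2 units (SE 0.16, limma adjusted p = 0.0282) and 0.53 without WT replicate 2 (adjusted p = 0.0118). The call was lost under 7 of 17 alternatives, among them those without WT replicate 1 or any 1 MU library (0.0602 to 0.102) and position centring (0.48, adjusted p = 0.1001), which subtracts the median change of neighbouring genes.

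The other 4 genes of this role were Btg2, an antiproliferative regulator of mRNA decay; Plk3, another stress-responsive polo-like kinase; Gadd45a, a stress protein that binds p21 and PCNA; and Ccng2, a cyclin made in resting cells. Btg2 averaged 5.45 ± 1.04 TPM in WT and 6.74 ± 0.212 TPM in MU without overlap between groups (limma adjusted p = 0.260), and Plk3 averaged 21.7 ± 4.78 and 16.4 ± 2.62 TPM with overlap (0.215). Gadd45a and Ccng2 had log2 fold changes of −0.08 and −0.02. The sign of Gadd45a turned only without WT replicate 2 (0.0333), and that of Ccng2 turned under several settings.

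Of 5 target genes of DNA repair and nucleotide supply, 3 rose (60.0%, against 7.12% of all tested genes), 0 fell and 2 did not pass. Ercc5 (ENSMUSG00000026048.16, chromosome 1, 44147744 to 44181260) encodes the endonuclease XPG, which makes the cut on the 3′ side of a lesion in nucleotide excision repair. Its level was 13.5, 13.5 and 14.5 TPM in WT and 26.2, 24.6 and 23.6 TPM in the MU libraries, with the WT libraries tightly grouped and all MU libraries above them. The log2 fold change was 0.80 (SE 0.09, limma adjusted p = 0.00285). It was 0.52 after position centring, where it still passed (adjusted p = 0.0145).

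Ddb2 (ENSMUSG00000002109.14, chromosome 2, 91211572 to 91236982), the damage sensor XPE that finds ultraviolet lesions for the same repair route, was at 3.80, 3.46 and 2.89 TPM in WT and 6.70, 5.99 and 6.61 TPM in MU. All MU libraries were above all WT libraries. The difference of 0.77 in log2 units (SE 0.14, limma adjusted p = 0.0132) became 0.45 with a pseudocount of 5, which shrinks changes of genes at this low level by construction. The call was lost without any 1 MU library (0.0506 to 0.0619). Ddb2 shares 652 exon bases (23.8% of its exon length) with Acp2 on the other strand, and whether reads were counted by strand is not stated in the labels. Acp2 averaged 17.5 ± 4.50 TPM in WT and 15.4 ± 1.27 TPM in the MU libraries, with overlapping groups.

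Polk (chromosome 13, 96480690 to 96542579), a DNA polymerase that copies past damaged bases, was at 8.45, 7.75 and 8.49 TPM in WT and 10.6, 10.9 and 11.5 TPM in MU. The lowest MU library lay above the highest WT library by more than either group's SD. Its log2 fold change was 0.38 (SE 0.10, limma adjusted p = 0.0474), the adjusted p nearest to the threshold among the 8 calls, and the call was lost under 8 of 17 alternatives, each of the 6 left-out libraries among them (0.0622 to 0.157). Rrm2b, the p53-induced subunit of ribonucleotide reductase that supplies nucleotides to resting cells, averaged 7.52 ± 0.790 TPM in WT and 9.06 ± 0.121 TPM in the MU libraries, with no overlap (limma adjusted p = 0.194). Xpc, the initiator of global excision repair, averaged 5.45 ± 0.590 and 5.42 ± 0.607 TPM, with a log2 fold change of −0.01 (95% confidence interval −0.34 to 0.33).

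Of 9 cell death genes, 7 were tested, of which 1 rose and 6 did not pass. The share called was 14.3%, near the 18.8% of all tested genes called in either direction. Tnfrsf10b (ENSMUSG00000022074.6, chromosome 14, 69767472 to 69784411) encodes the death receptor for the ligand TRAIL. Its level was 16.7, 14.7 and 19.0 TPM in WT and 24.7, 24.6 and 23.8 TPM in the MU libraries, with the MU libraries close together above all WT libraries. The log2 fold change was 0.52 (SE 0.11, limma adjusted p = 0.0241), and 0.23 (adjusted p = 0.234) after position centring. The call was also lost without WT replicate 1 or any 1 MU library (0.0746 to 0.0945).

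Fas, another death receptor, was at 3.18, 3.64 and 2.11 TPM in WT and 4.59, 5.41 and 5.12 TPM in the MU libraries, with no overlap between groups and a limma adjusted p of 0.0639. It passed without WT replicate 2 (0.0398) and after rescaling without mtDNA-encoded genes (0.0490). Aen, a nuclease that p53 induces in dying cells, pointed the other way, at 57.0, 87.0 and 55.4 TPM in WT and 38.4, 41.8 and 43.8 TPM in MU. Here WT replicate 2 was far above the rest while the groups still did not overlap. The difference was −0.64 in log2 units (SE 0.18, limma adjusted p = 0.0515) and −0.44 without WT replicate 2, where it passed (adjusted p = 0.0185). Without any 1 MU library the limma adjusted p of Aen was 0.117 to 0.155. In the authors' deposited table the adjusted p was 0.00728 for Aen and 0.0614 for Fas.

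The remaining death genes did not pass. Apaf1, the scaffold on which caspase 9 is activated, averaged 12.8 ± 1.75 TPM in WT and 16.1 ± 1.27 TPM in the MU libraries, with no overlap (limma adjusted p = 0.142, and 0.0364 in the authors' deposited table). Phlda3, a small repressor of Akt and the third most abundant of the 33 transcripts by the mean of both groups, averaged 96.5 ± 8.82 and 116 ± 11.002 TPM. Eda2r, the ectodysplasin A2 receptor, averaged 7.34 ± 1.03 and 6.86 ± 0.631 TPM, and Ei24, a protein of the endoplasmic reticulum, 45.6 ± 3.18 and 42.4 ± 1.39 TPM. Eda2r lies on chromosome X, where 73.8% of tested protein-coding genes were lower on average in MU than in WT, and the sign of Eda2r turned from −0.08 to 0.24 after position centring.

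Among 5 target genes of survival and metabolism, 1 fell, 0 rose and 4 did not pass. Fdxr (ENSMUSG00000018861.8, chromosome 11, 115268024 to 115277050) encodes ferredoxin reductase, a mitochondrial flavoprotein that passes electrons from NADPH to the ferredoxins used in steroid and iron-sulfur cluster synthesis. Its level was 21.8, 23.4 and 18.5 TPM in WT and 13.02, 14.8 and 14.5 TPM in the MU libraries, with all MU libraries below all WT libraries. The log2 fold change was −0.55 (SE 0.12, limma adjusted p = 0.0226). The call was lost without WT replicate 1 or any 1 MU library (0.0727 to 0.0906) and after position centring (−0.38, adjusted p = 0.0806).

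Tigar, a fructose bisphosphatase that lowers glycolytic flux and favours NADPH production, was at 7.06, 9.33 and 6.32 TPM in WT and 4.89, 5.09 and 4.26 TPM in MU. All MU libraries were below all WT libraries, by −0.56 on the log2 scale (SE 0.16, limma adjusted p = 0.0587). Tigar did pass without WT replicate 3 (0.0476) and with a correction for GC content and length (0.0456), and its adjusted p in the authors' deposited table was 0.0329. Sesn1, a sestrin that restrains the growth kinase mTORC1, went the other way, at 19.4, 16.6 and 19.1 TPM in WT and 24.7, 23.5 and 22.1 TPM in MU. Its groups did not overlap either, and its limma adjusted p of 0.0631 became 0.0289 under quantile normalization, 0.0270 when scaled by medians of ratios and 0.0475 with the GC and length correction. Without any 1 MU library the limma adjusted p of Sesn1 was 0.122 to 0.206. Position centring moved the log2 fold change of Sesn1 from 0.34 to 0.15 (adjusted p = 0.359).

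Dram1, a lysosomal membrane protein of autophagy, averaged 6.67 ± 0.409 TPM in WT and 5.02 ± 0.612 TPM in MU without overlap (limma adjusted p = 0.114). Zmat3, an RNA-binding zinc finger protein, averaged 26.02 ± 4.914 and 28.9 ± 0.554 TPM, with overlap (0.486). Positive log2 fold changes numbered 2 of 5 in this role, 7 of 8 among p53 and its regulators, 3 of 6 among cell cycle genes, 4 of 5 among repair genes and 4 of 7 among death genes, against 44.4% of all tested genes. The differences between roles were not tested, and the signs of Mdm4, Cop1 and Rchy1 turned when WT replicate 2 was left out.

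**Figure D4:**
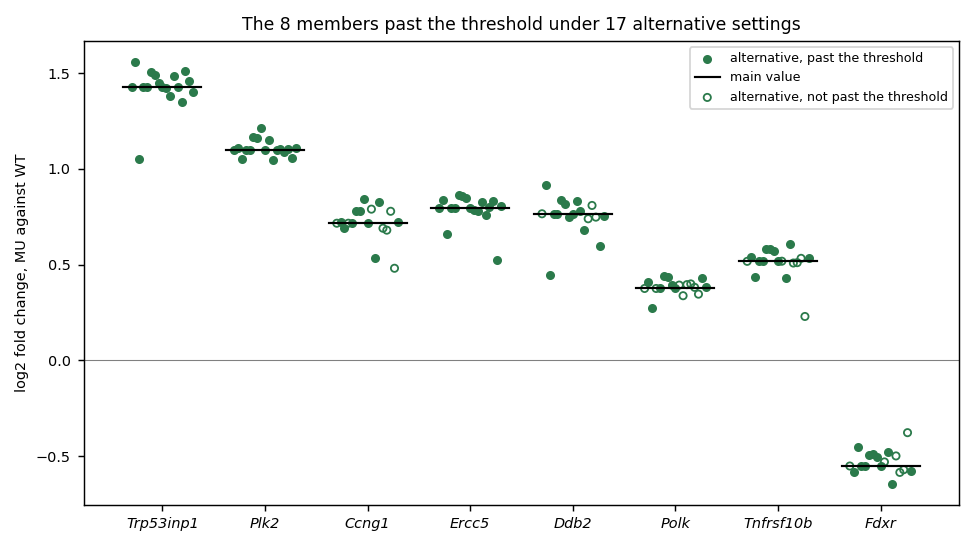
Log2 fold changes of the 8 genes past the threshold under the 17 alternative settings (points, filled where the gene still passed) and in the main comparison (black line). All points of Trp53inp1, Plk2 and Ercc5 are filled, and none of the 8 genes changes sign. The lowest point of Tnfrsf10b, at 0.23, is the position-centred value.

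The spread between libraries differed between the groups. The coefficient of variation of TPM was higher in WT than in MU for 26 of the 31 genes, with a median of 12.7% in WT and 6.62% in MU. Over all tested genes, too, WT libraries correlated less with each other (Pearson 0.9486 to 0.9662) than MU libraries did (0.971 to 0.9755). WT replicate 2 was the lowest WT library for 17 of the 31 genes and the highest for 9. These counts were not made over all tested genes. The 7 risen genes had a transcript GC content of 38.8% to 48.9% (median 45.1%), and Fdxr had 60.0%. The genes that did not pass ranged from 36.6% to 62.6% (median 49.1%). All 8 calls were still made after a correction for GC content and length. That setting called more of all tested genes, 3415 against 2667, with 8.78% higher and 15.3% lower.

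Further genes of the pathway, 44 in all, were taken from a list of regulators and targets. Of 39 that were tested, 6 rose, 6 fell and 27 did not pass, or 15.4% in each direction against the background of 7.12% and 11.6%. Without any 1 MU library the number that rose was 2, where 3.01% to 3.27% of all tested genes rose. The number that fell was 10 without WT replicate 2 and 3 without MU replicate 2, where 15.8% and 4.53% of all tested genes fell. The median log2 fold change of the 39 was 0.05. Apart from Cdkn2a, the p53 relatives Trp63 and Trp73 and the genes Trp53i11 and Rprm were below the filter. In the authors' deposited table, 40 of the 44 had an adjusted p, which was under 0.05 for 10 as higher and 7 as lower. The shares of its genes with an adjusted p were 9.42% and 11.6%. Trp63, at means of 0.0736 TPM in WT and 0.306 TPM in MU, was among the 10 (authors' adjusted p = 0.0420).

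Ephx1, an epoxide hydrolase of detoxification, rose most clearly, from 30.6, 34.6 and 25.9 TPM in WT to 101, 116 and 114 TPM in MU (log2 fold change 1.84, SE 0.12, limma adjusted p = 0.000502). Dcxr, a carbonyl reductase, rose from 16.7 ± 0.759 to 31.2 ± 2.48 TPM, and Tap1, a peptide transporter of antigen presentation, from 6.75 ± 0.733 to 11.001 ± 0.585 TPM. The call of Tap1 was lost under 4 of 17 alternatives, the fit with the replicate block (0.0718) and those without any 1 MU library (0.0596 to 0.0667). In the other direction, Cgref1 fell from 15.0 ± 1.90 to 5.69 ± 0.820 TPM, or −1.26 in log2 units (SE 0.15, limma adjusted p = 0.00299). Cgref1 lies on chromosome 5, where 70.5% of tested protein-coding genes were lower on average in MU, and it was at −0.83 after position centring (adjusted p = 0.0132). The ubiquitin ligase gene Siah1b fell from 16.8 ± 0.880 to 9.32 ± 0.632 TPM, and the ephrin receptor gene Epha2 from 52.1 ± 6.61 to 28.0 ± 1.504 TPM. Siah1b lies on chromosome X and had a log2 fold change of −0.79, which was −0.37 after position centring (adjusted p = 0.0526). Siah1b has a close relative, Siah1a, with which it could share reads, so its value is uncertain.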

How the data were processed

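Per the labels' protocols, poly(A) libraries were made from RNA of 3 WT and 3 MU samples with a kit that marks strand. The submitters' processing notes name, without roles, DESeq2 1.20.0, featureCounts 1.5.0-p3, HISAT2 2.05.0, FastQC 0.11.4 and the build mm10. The authors deposited log2 values which, from their sums, are log2(TPM + 1), and a table with each gene's mean TPM, p-value, adjusted p-value and log2 fold change. TPM keeps no depth, so depth is unknown and no counting interval was computed.

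Genes with at least 1 TPM in at least 3 of 6 libraries (14209) entered a fit in limma 3.58.1 under R 4.3.3 (intensity trend, two-sided, no covariate). Fold changes are on the log2(TPM + 1) scale, which understates changes of low genes. Positions, exon overlaps and GC content come from GENCODE M21 (GRCm38, the assembly of mm10), matched by identifier for 55141 genes. The fit was tested on simulated data.

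The members, lists and tests were chosen with earlier results of these data known. By rule, values in every library are given for members that passed and for Trp53, Mdm2 and Mdm4. From the further pathway genes, Cdkn2a and the 3 strongest calls in each direction are named, and 2 of the G2/M genes. Aen, Fas, Tigar and Sesn1 were detailed after their values were seen. Alternatives were a replicate block, other pseudocounts, filters and scalings, no trend, and each library left out. Position centring (20 neighbouring protein-coding genes on each side) and a GC and length correction (loess, span 0.3) were added after seeing the data.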

Additional observations from a re-analysis of the deposited data

How the results depend on the processing

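Of the 8 called genes, none changed sign under any of the 17 alternatives, and 3 kept their call in all of them. The members that rose numbered 3 to 7 when 1 library was left out (7 with all), and those that fell 0 to 3 (1 with all). Among further pathway genes these ranges were 2 to 8 for rises (6 with all) and 3 to 10 for falls (6 with all). Smaller groups test with less power by construction. The numbers repeat across WT and MU, but deviations of same-numbered libraries correlated at 0.05, 0.02 and −0.07, so they were not taken as pairs, and not every library correlated best with its own number. With the replicate block, 3 members rose and 0 fell, and 2 further genes rose and 4 fell, where 3.21% of all tested genes rose and 4.48% fell. Falls among members numbered 2 with a minimum of 5 TPM, 0 after position centring and 3 with the GC and length correction. The shares of all tested genes that fell in these settings were 14.7%, 8.62% and 15.3%. Of all tested genes, 2667 passed, 1093 with the replicate block and 1071 to 3391 with 1 library left out. Rises then made up 3.01% to 8.11% of all tested genes and falls 4.53% to 15.8%. The median of all tested genes was −0.05 as deposited and between −0.0038 and 0.0024 with the other scalings, and the rises were 37.9% of all calls as deposited and 48.3% to 48.8% with those scalings. Signs turned, without a call on either side, for genes near 0. Ccng2 became 0.0455, 0.0458 and 0.0119 after rescaling to nuclear-encoded genes, scaling by medians of ratios and quantile scaling, and 0.17 after position centring. Xpc became 0.0487 and 0.0476 with the first 2 of these, 0.0437 after position centring and 0.0012 with the GC and length correction. Eda2r was 0.24 after position centring and Cop1 −0.0062 with the GC and length correction. With 1 library left out, Ccng2 ranged from −0.0960 to 0.1225, Cop1 ranged from −0.0820 to 0.1375, Gadd45a ranged from −0.2282 to 0.0333, Mdm4 ranged from −0.0112 to 0.1233, Rchy1 ranged from −0.0423 to 0.2637 and Xpc ranged from −0.0855 to 0.0442. The cause of these shifts was not tested. A planned setting without any filter kept 5 of the 7 rises, where 2.26% of the genes it tested rose.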
